A study of Homo sapiens with 12 samples.

Results

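The gene set described here is the ATF4 stress response together with serine synthesis, in 4 human cell lines that differ in the EZH2 they were given. Its 10 members are ATF4, ATF3, DDIT3, DDIT4, TRIB3, CHAC1, ASNS, PSAT1, PHGDH and MTHFD2. They were taken by symbol from a table of RNA-Seq counts, which held all 10 of them among 14438 genes. EZH2 is the catalytic subunit of the Polycomb repressive complex PRC2, which methylates lysine 27 of histone H3 at silenced genes. HEK293T, a line of human embryonic kidney origin, was infected with lentivirus carrying wild-type EZH2 (EZH2 WT), the gain-of-function (GOF) mutants EZH2 Y641F or EZH2 A677G, or the loss-of-function (LOF) double mutant EZH2 H689A/F667I, and was then selected with blasticidin into populations the study calls monoclonal. Each line was sequenced as replicates 1, 2 and 3, which makes 12 libraries. No treatment is named for any line, and in all 4 the introduced EZH2 came on top of the cells' own EZH2, so that EZH2 WT is a line with added wild-type EZH2 and not an uninfected one. The study describes its replicates as biological, but the labels do not say whether they came from separate infections, and p-values measure only the spread between these libraries.

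In the integrated stress response, kinases that sense misfolded protein, amino acid shortage, viral RNA or lack of haem phosphorylate the initiation factor eIF2. General translation then falls while the mRNA of the transcription factor ATF4 is translated more, so that much of the control over ATF4 lies in its translation, which RNA-Seq does not measure. ATF4 binds together with C/EBP proteins and switches on genes for amino acid uptake and synthesis, for making serine and folate units, for glutathione breakdown and for damping growth signals.

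The short promoter windows that hold the core of the element bound by ATF4 and its C/EBP partners are shown first, to show where these letters stand near the starts of 3 members. RefSeq promoters on GRCh38.p14, from 250 bases before to 50 after a transcription start, gave 16 sequences for the 10 members. The 8 letters TGATGNAA, searched on both strands, were found in 3 of these 16 promoters (18.8%), against 3.62% of 35116 promoters in all and 1.92% of the 16335 promoters of genes in the count table. The strict form TGATGCAA, which is contained in the looser one, was in 1 of the 16 and in 0.866% of all promoters. The cyclic AMP response element TGACGTCA, a palindrome to which ATF factors also bind, was in 0 of the 16 and in 1.85% of all promoters, and its absence says only that these letters are not in these windows. In the windows below the matching letters are in capitals. That of ASNS (chr7:97872458-97872487, minus strand) has its match 68 bases before the start, at position -68, and is also covered by the exon of a longer GENCODE transcript of ASNS. That of ATF3 (chr1:212565205-212565234, plus strand) has its match at -191 and lies in no annotated gene. That of CHAC1 (chr15:40953251-40953280, plus strand) has its match at -209 on the opposite strand, so that the letters read as the reverse complement of TGATGCAA, and falls within an exon of a longer CHAC1 transcript.
ASNS: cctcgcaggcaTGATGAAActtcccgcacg
ATF3: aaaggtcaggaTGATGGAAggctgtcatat
CHAC1: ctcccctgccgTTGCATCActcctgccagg
A match describes the letters and is not evidence of binding in these cells.

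Counts per library summed to between 32137700 and 44562413. EZH2 RNA, which the counts cannot divide into introduced and endogenous transcripts, averaged 158 ± 4.32 CPM (counts scaled to a common library size with TMM factors) in EZH2 WT (SD, n = 3), 218 ± 9.61 with EZH2 Y641F, 173 ± 8.57 with EZH2 A677G and 208 ± 2.03 with EZH2 H689A/F667I, and does not check which mutation a library carries. Replicate 1 of EZH2 Y641F stood apart from the other libraries, with -19.2 on principal component 2, where the others lay between -10.1 and 10.6, and with the lowest quality weight in voom, 0.444. Among 6 markers used for HEK293T, PAX2 had 12 to 25 counts per library in 3 of the lines but 0 in all EZH2 A677G libraries and was left out of the tests, as were all 175 genes at 0 in every EZH2 A677G or every LOF library. Why these rows hold 0 is not given in the sources used here and was not tested, so that the zeros are not read as lost expression. The summed level of the 6 markers was 612 to 638 CPM in EZH2 WT, 469 to 520 in EZH2 Y641F, 434 to 475 in EZH2 A677G and 562 to 566 in EZH2 H689A/F667I. NEFM and NEFL, which encode neurofilament proteins, were lower than in EZH2 WT in each mutant line by edgeR's quasi-likelihood test. In EZH2 H689A/F667I these calls were less firm, since NEFM (-0.35 on the log2 scale, edgeR adjusted p = 0.00304) was lost with DESeq2 (adjusted p = 0.140) and passed in 4 of 6 fits that left out a library, and NEFL (-0.21, edgeR adjusted p = 0.0280) passed in 2 of 6. VIM, the filament protein vimentin, was lower in EZH2 Y641F (-0.12, edgeR adjusted p = 0.0187) and passed in 4 of 6. The remaining markers KRT8 and KRT18 were not called against EZH2 WT in any mutant line, nor was VIM elsewhere. The highest log2 fold change among the 5 tested markers was 1.5e-04 with EZH2 Y641F, -0.056 with EZH2 A677G and 0.17 with EZH2 H689A/F667I. Their medians were -0.12, -0.21 and -0.051, so that not every marker was lower in the LOF line. The part of these marker differences in the results below was not tested. Of 9 markers of other cell types, the blood markers PTPRC and CD3E, the liver marker ALB and the endothelial markers PECAM1 and VWF had no row in the table, and the remaining 4 summed to 8.90 to 14.9 CPM. Of these 4, LUM, a matrix protein of connective tissue, was higher in EZH2 Y641F (3.23, 1.52 and 2.65 CPM) than in EZH2 WT (0.920, 1.73 and 1.33 CPM), with overlapping replicates and a log2 fold change of 0.90 (edgeR quasi-likelihood, adjusted p = 0.0218) that passed in 2 of 6 fits that left out a library, and its part in the results was not tested.

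RNA of the set was present in every library and its members spanned a wide range of levels. Per kilobase of the canonical transcript and averaged over the 12 libraries, ATF4 stood highest with 353 CPM per kb, at percentile 98.8 of 13924 genes with a known length. PHGDH, the enzyme that opens serine synthesis, followed with 190 CPM per kb at percentile 97.9. PSAT1 (66.2 CPM per kb), MTHFD2 (53.4), ASNS (41.1) and DDIT4 (31.1) followed at percentiles 93.0, 90.8, 87.9 and 83.6. TRIB3 (7.87 CPM per kb) and ATF3 (7.16) lay at percentiles 51.7 and 49.3. DDIT3 (4.06 CPM per kb, percentile 36.7) and CHAC1 (1.51, percentile 21.6) were the lowest. Between the lowest and the highest of the 12 libraries, levels differed by a factor of 1.13 for MTHFD2, 1.14 for ATF4, 1.15 for PHGDH and PSAT1, 1.16 for ASNS, 1.25 for ATF3, 1.45 for TRIB3, 1.58 for DDIT4 and DDIT3, and 2.08 for CHAC1, which had the fewest counts (64 to 140 per library).

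**Figure D1:**
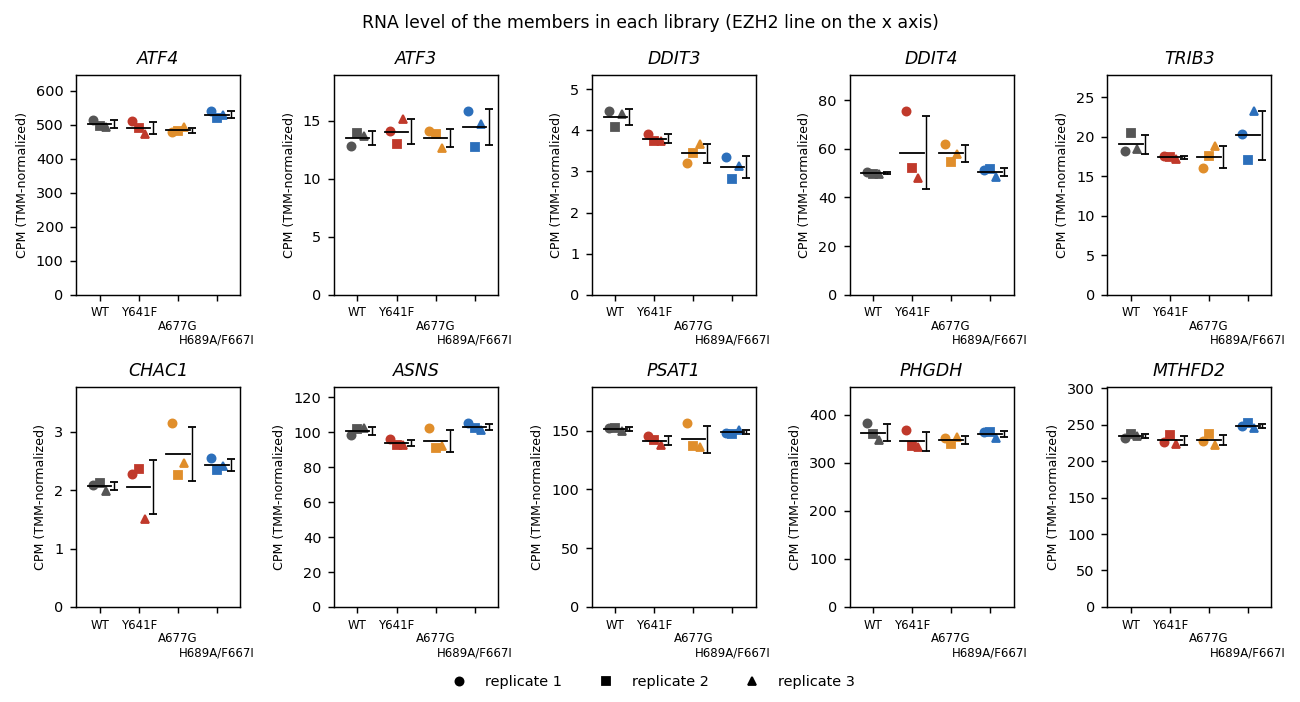
RNA levels of the 10 members in CPM (TMM-normalized, axes starting at 0) for each library, by EZH2 line, with symbols for replicates 1, 2 and 3, horizontal lines for the means and bars for the SD (n = 3). ATF4 lies between 472 and 540 CPM in all 12 libraries, while 1 library of EZH2 Y641F stands at 75.5 CPM of DDIT4 above all others.

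Each mutant line was set against EZH2 WT. Each mutation is represented by libraries under 1 line label, and whether they came from separate infections is not given. EZH2 RNA also differed between the lines. A difference between lines therefore cannot be told apart from one made by the mutation. Counts of 14263 genes were tested together with the quasi-likelihood method of edgeR, and p-values were adjusted by Benjamini-Hochberg. None of the members passed an adjusted p of 0.05 in any mutant line against EZH2 WT. In EZH2 Y641F the count was 0 of 10 members, against 7.68% of all genes tested. In EZH2 A677G it was also 0 of 10, against 8.55%, and in EZH2 H689A/F667I 0 of 10, against 0.301%. At an unadjusted p under 0.05 there were 3 members in EZH2 Y641F (ASNS, DDIT4 and PSAT1), where 19.2% of all genes were, 2 in EZH2 A677G (DDIT3 and DDIT4), where 20.4% were, and 3 in EZH2 H689A/F667I (ATF4, DDIT3 and MTHFD2), where 8.3% were. edgeR's exact test and DESeq2 called 0 members in these 3 comparisons, and limma voom with sample quality weights called DDIT4 in EZH2 A677G alone. The intervals below show how large a change could have been missed. In these RNA pools, fewer cells with a transcript and less of it per cell cannot be told apart.

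The median log2 fold change of the members against EZH2 WT was -0.055 for EZH2 Y641F, -0.057 for EZH2 A677G and 0.055 for EZH2 H689A/F667I, where the medians over all genes were 0.0025, 0.0045 and 0.0024. Below zero were 8 of 10 members for EZH2 Y641F, where 49.0% of all genes were, 7 of 10 for EZH2 A677G, where 48.3% were, and 3 of 10 for the LOF line, where 48.8% were. The 3 comparisons share the EZH2 WT libraries. Replicates did not overlap with those of EZH2 WT for 4 members in EZH2 Y641F, all lower (ASNS, DDIT3, PSAT1 and TRIB3), where 20.9% of all genes did not overlap and 11.7% were lower. In EZH2 A677G they did not overlap for 4 members either, ATF4 and DDIT3 lower and CHAC1 and DDIT4 higher, against 27.2% of all genes. In EZH2 H689A/F667I the 4 such members were DDIT3, lower, and ATF4, CHAC1 and MTHFD2, higher, against 15.0%.

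**Figure D2:**
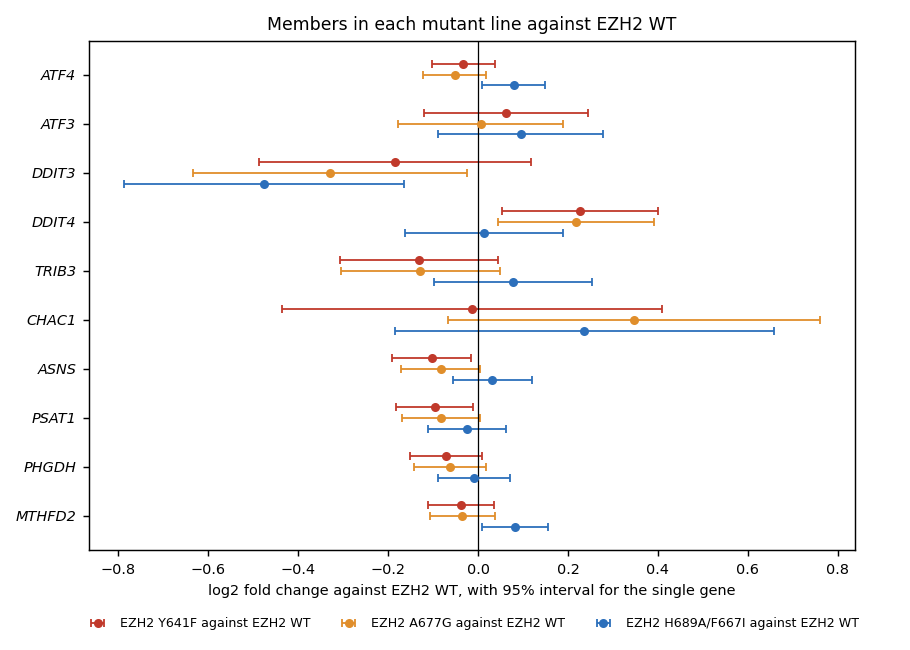
Log2 fold changes of the members in each mutant line against EZH2 WT (x axis), with 95% intervals for the single gene from the quasi-likelihood fit, colored by line. The intervals of the well-counted genes ATF4, PHGDH and MTHFD2 are narrow and lie near zero, and those of DDIT3 and CHAC1 are the widest.

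ATF4 (ENSG00000128272.18, chr22:39519695-39522683 on GRCh38, plus strand) encodes the transcription factor at the head of the response. It measured 516, 496 and 494 CPM in EZH2 WT, 510, 490 and 472 with EZH2 Y641F, 480, 480 and 492 with EZH2 A677G and 540, 520 and 530 with EZH2 H689A/F667I. The LOF libraries were the highest of all 12 and those of EZH2 A677G were all below EZH2 WT. Against EZH2 WT the log2 fold change was 0.08 in EZH2 H689A/F667I (edgeR quasi-likelihood, Benjamini-Hochberg adjusted p = 0.512), -0.03 with EZH2 Y641F (adjusted p = 0.677) and -0.05 with EZH2 A677G (adjusted p = 0.439). Over the 3 lines, the 95% intervals for the single gene ran from -8.15% to 10.9%, so that larger changes of ATF4 RNA lie outside them.

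ATF3 (ENSG00000162772.18, chr1:212565334-212620777, plus strand) encodes a related stress-induced factor that acts next to ATF4 and C/EBP proteins. Its levels were 12.8, 14.0 and 13.7 CPM in EZH2 WT, 14.1, 13.0 and 15.1 with EZH2 Y641F, 14.1, 13.8 and 12.6 with EZH2 A677G and 15.8, 12.8 and 14.7 with EZH2 H689A/F667I. All 4 lines overlapped, with log2 fold changes of 0.06, 0.01 and 0.09 in the order of the mutant lines just given and intervals that together ran from -11.6% to 21.3%.

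DDIT3 (ENSG00000175197.13, chr12:57516588-57521737, minus strand), also called CHOP, encodes the C/EBP family factor linked to cell death under lasting stress in the endoplasmic reticulum. It stood at 4.47, 4.09 and 4.40 CPM in EZH2 WT, 3.92, 3.73 and 3.74 with EZH2 Y641F, 3.21, 3.44 and 3.67 with EZH2 A677G and 3.36, 2.83 and 3.13 with EZH2 H689A/F667I. Every mutant library was below the lowest EZH2 WT library, and the share of all genes for which this holds was not counted. The log2 fold change was -0.48 ± 0.154 (SE) in EZH2 H689A/F667I (edgeR quasi-likelihood, adjusted p = 0.289), -0.33 ± 0.150 in EZH2 A677G (adjusted p = 0.197) and -0.19 ± 0.149 in EZH2 Y641F (adjusted p = 0.554). None of these passed the test, nor did they in any of the 18 alternatives tried. With 101 to 165 counts per library, the intervals of the 3 lines ran from -42.1% to 8.42%. DDIT3 overlaps MARS1 and MBD6 on the opposite strand, both of which were counted, and how the counting used strand is not given in the sources used here. On its own strand it overlaps the protein-coding gene ENSG00000285133 over 2769 bases, which had no row in the table.

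Among the regulators of signalling, DDIT4 (ENSG00000168209.6, chr10:72273919-72276036, plus strand) encodes REDD1, an inhibitor of the growth kinase mTORC1. DDIT4 levels were 50.5, 49.8 and 49.7 CPM in EZH2 WT, 75.5, 52.1 and 47.8 with EZH2 Y641F, 61.9, 54.7 and 57.9 with EZH2 A677G and 51.1, 51.7 and 48.4 with EZH2 H689A/F667I. All EZH2 A677G libraries were above those of EZH2 WT, while in EZH2 Y641F replicate 1 alone was far above and replicate 3 was the lowest of the 12. The log2 fold change was 0.22 ± 0.0855 (SE) in EZH2 A677G (edgeR quasi-likelihood, adjusted p = 0.118), 0.23 ± 0.0854 in EZH2 Y641F (adjusted p = 0.106) and 0.01 in EZH2 H689A/F667I (adjusted p = 0.985). The difference in EZH2 A677G passed the test in 3 of 12 other settings, those fitted on the 2 lines alone, by voom with quality weights, and with a GC trend removed together with a replicate block. In EZH2 Y641F the value rested on replicate 1: without it the log2 fold change was -0.0026 (edgeR adjusted p = 0.987), while it passed without replicate 2 (0.30, adjusted p = 0.0370) and without replicate 3 (0.35, adjusted p = 0.00304).

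In that library DDIT4 was 51.1% above the mean of the other 2 EZH2 Y641F libraries, and the coefficient of variation was 25.5%, where counting alone gives 2.04%. Of 12945 genes with a mean of at least 1 CPM in this line, 1.92% had a ratio at least as high. The median ratio of the same library to the other 2 was 1.05 over the 10 members (9 above 1), 0.957 over 10 hypoxia-responsive genes (4 above 1), 0.947 over 18 genes of the IRE1 and ATF6 branches of the unfolded protein response (5 above 1) and 1.15 over 6 immediate early genes (4 above 1). DDIT4, for which the library was singled out, is among the 9 members. The share of all genes above 1 in this library was not counted, so that these counts have no baseline. JUN, an immediate early gene and bZIP partner, measured 242 CPM there and 172 and 156 in the other 2. What set this library apart was not tested.

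TRIB3 (ENSG00000101255.12, chr20:362835-397559, plus strand) encodes a pseudokinase that binds AKT and ATF4 and feeds back on the response. Its levels were 18.3, 20.4 and 18.5 CPM in EZH2 WT, 17.6, 17.4 and 17.2 with EZH2 Y641F, 16.1, 17.6 and 18.8 with EZH2 A677G and 20.4, 17.0 and 23.2 with EZH2 H689A/F667I. The 3 EZH2 Y641F libraries were below EZH2 WT, and the LOF libraries spread across the values of all lines. Log2 fold changes against EZH2 WT were -0.13, -0.13 and 0.08 in the order just given, none of which passed, with intervals that ran from -19.2% to 19.3%.

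CHAC1 (ENSG00000128965.13, chr15:40952962-40956512, plus strand) encodes an enzyme that breaks down glutathione. It was at 2.08, 2.12 and 1.99 CPM in EZH2 WT, 2.28, 2.36 and 1.51 with EZH2 Y641F, 3.14, 2.26 and 2.47 with EZH2 A677G and 2.54, 2.34 and 2.42 with EZH2 H689A/F667I. All A677G and LOF libraries were above EZH2 WT, and EZH2 Y641F held both higher and lower ones. The largest difference, a log2 fold change of 0.35 ± 0.204 (SE) in EZH2 A677G, did not pass (edgeR quasi-likelihood, adjusted p = 0.357), and intervals from -26.1% to 69.5% left a wide range at this depth.

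ASNS (ENSG00000070669.17, chr7:97851677-97872542, minus strand) encodes asparagine synthetase, a classical ATF4 target. ASNS levels were 98.3, 102 and 102 CPM in EZH2 WT, 95.9, 92.6 and 92.9 with EZH2 Y641F, 102, 90.7 and 92.0 with EZH2 A677G and 105, 102 and 101 with EZH2 H689A/F667I. All EZH2 Y641F libraries and 2 of the 3 of EZH2 A677G were below EZH2 WT. The log2 fold change was -0.10 ± 0.0433 (SE) in EZH2 Y641F (edgeR quasi-likelihood, adjusted p = 0.165), -0.08 in EZH2 A677G (adjusted p = 0.280) and 0.03 in EZH2 H689A/F667I (adjusted p = 0.893), with intervals from -12.4% to 8.65%.

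Serine is made from a glycolytic intermediate by PHGDH, then PSAT1, and a last phosphatase step. PHGDH (ENSG00000092621.13, chr1:119648411-119744218, plus strand) measured 382, 360 and 347 CPM in EZH2 WT, 368, 335 and 333 with EZH2 Y641F, 351, 338 and 353 with EZH2 A677G and 364, 365 and 353 with EZH2 H689A/F667I. PSAT1 (ENSG00000135069.14, chr9:78297125-78330093, plus strand) measured 152, 152 and 149 CPM in EZH2 WT, 145, 142 and 137 with EZH2 Y641F, 156, 137 and 136 with EZH2 A677G and 148, 147 and 151 with EZH2 H689A/F667I. PHGDH overlapped in all lines, and PSAT1 was below EZH2 WT in the EZH2 Y641F libraries. The log2 fold change of PSAT1 in EZH2 Y641F was -0.10 ± 0.0427 (SE; edgeR quasi-likelihood, adjusted p = 0.190), and that of PHGDH was -0.07 ± 0.0395 (adjusted p = 0.326). Single libraries decided whether these passed: PHGDH in EZH2 Y641F gave -0.12 (edgeR, adjusted p = 0.0332) without its replicate 1, and PSAT1 in EZH2 A677G gave -0.15 (adjusted p = 0.0263) without its replicate 1. Intervals over the 3 lines ran from -10.0% to 4.99% for PHGDH and from -11.9% to 4.33% for PSAT1.

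MTHFD2 (ENSG00000065911.13, chr2:74186172-74217565, plus strand) encodes a mitochondrial enzyme that takes the folate units derived from serine further. MTHFD2 levels were 232, 237 and 234 CPM in EZH2 WT, 226, 236 and 224 with EZH2 Y641F, 228, 237 and 222 with EZH2 A677G and 248, 252 and 245 with EZH2 H689A/F667I. The LOF libraries were the highest 3 of the 12. The log2 fold change in EZH2 H689A/F667I was 0.08 (edgeR quasi-likelihood, adjusted p = 0.508), with intervals over the 3 lines from -7.39% to 11.4%.

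When the GOF lines were set against the LOF line, a few members passed the test, by small amounts. ATF4, ASNS and MTHFD2 were lower in EZH2 Y641F than in EZH2 H689A/F667I, 3 of 10 members where 8.92% of all genes were called and 6.43% were lower. ATF4 and MTHFD2 were lower in EZH2 A677G than in EZH2 H689A/F667I, 2 of 10 where 10.3% of all genes were called and 7.66% were lower. ATF4 differed by a log2 fold change of -0.11 ± 0.0347 (SE) in EZH2 Y641F (edgeR quasi-likelihood, Benjamini-Hochberg adjusted p = 0.0358) and -0.13 ± 0.0347 in EZH2 A677G (adjusted p = 0.0100). MTHFD2 differed by -0.12 ± 0.0360 in both (edgeR, adjusted p = 0.0284 for EZH2 Y641F, 0.0295 for EZH2 A677G). ASNS differed by -0.13 ± 0.0433 in EZH2 Y641F (adjusted p = 0.0442), and its -0.11 in EZH2 A677G did not pass (adjusted p = 0.0907). For these 5 called differences, the GOF and LOF replicates did not overlap, as for 21.9% of all genes (12.2% lower) with EZH2 Y641F and 28.4% (15.5% lower) with EZH2 A677G. The calls were made from the same libraries, so that the lack of overlap is not separate support for them.

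Each of these calls was lost in some alternative. The 3 calls in EZH2 Y641F became 0 when libraries were scaled by their totals alone or when only the compared lines were fitted. Without replicates 1, 2 or 3 of EZH2 H689A/F667I, the counts of members called in EZH2 Y641F were 0, 1 (TRIB3) and 0, and it was 2 (MTHFD2 and DDIT4) without replicate 2 of EZH2 Y641F and 1 (DDIT4) without its replicate 3. In EZH2 A677G the 2 calls became 0 without replicate 1 of EZH2 H689A/F667I, stayed 2 in number but were ATF4 and TRIB3 without its replicate 2, became 1 (ATF4) without its replicate 3, and 1 (ASNS, MTHFD2 or ATF4) without replicate 1, 2 or 3 of EZH2 A677G. The directions of ATF4, ASNS and MTHFD2 in these comparisons held in all 18 alternatives, with log2 fold changes for ATF4 between -0.14 and -0.085 in EZH2 Y641F when a library was left out. ASNS, ATF4 and MTHFD2 also have processed copies elsewhere in the genome (4, 4 and 7 named pseudogenes, none with a row in the table), so that reads shared with them cannot be told apart, and MTHFD2 overlaps SLC4A5 on the opposite strand. On the same strand, ASNS overlaps the noncoding RNA gene ENSG00000284707 over 20855 bases and MTHFD2 overlaps ENSG00000279201 over 858 bases. Neither had a row in the table. PSAT1, which was not called, also has 4 named pseudogenes.

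At an unadjusted p under 0.05, the members were ASNS, ATF4, DDIT4, MTHFD2 and TRIB3 in both comparisons with the LOF line, 5 of 10 where 20.8% of all genes were with EZH2 Y641F and 21.8% with EZH2 A677G. The comparisons share the LOF libraries. TRIB3 had a log2 fold change of -0.21 in each GOF line (edgeR quasi-likelihood, adjusted p = 0.139 and 0.140). DDIT4 went the other way, with 0.21 in EZH2 Y641F (adjusted p = 0.125) and 0.20 in EZH2 A677G (adjusted p = 0.139). The median over the members was -0.091 with EZH2 Y641F, -0.073 with EZH2 A677G, where those of all genes were 0.0019 and 0.0046. Between the GOF lines themselves, EZH2 Y641F against EZH2 A677G, edgeR's quasi-likelihood test called 0 of 10 members, against 0.0841% of all genes. With the 175 genes at 0 kept, 178 of 14438 genes were called, in place of 12 of 14263. At an unadjusted p under 0.05 there were also 0 members, against 6.91% of all genes, as by edgeR's exact test and DESeq2, with 1 by voom. Replicates of the GOF lines did not overlap for 1 member, DDIT3, against 10.2% of all genes. For ATF4 the interval of the difference between the GOF lines was -3.47% to 6.42%, for MTHFD2 -5.13% to 4.97%, for PHGDH -6.07% to 4.93%, and for CHAC1 a wide -41.3% to 3.43%.

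**Figure D3:**
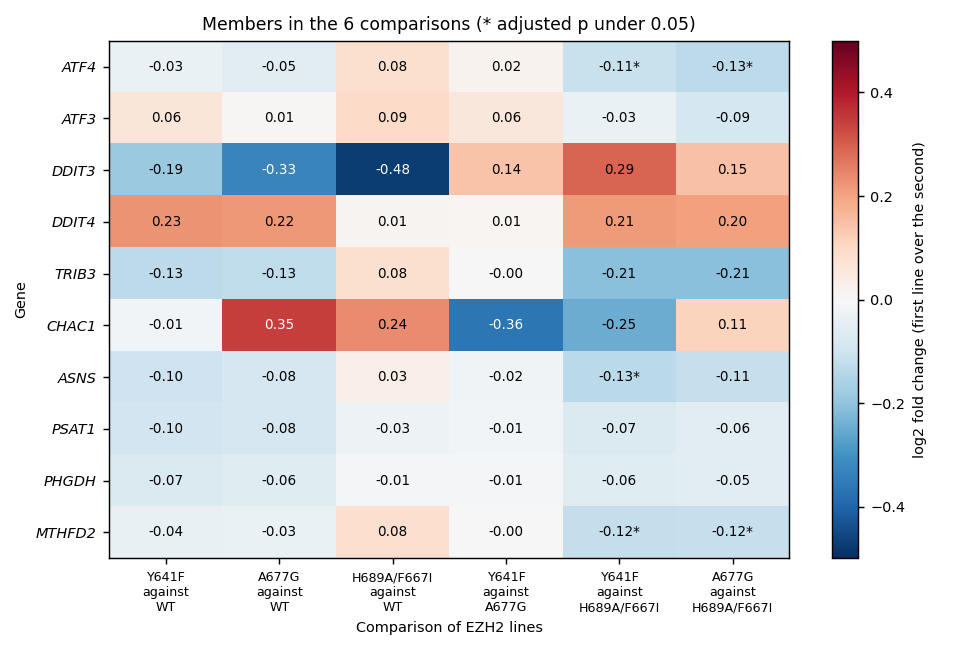
Log2 fold changes of the 10 members (rows) in the 6 comparisons between lines (columns), the first line over the second, with color from blue (lower) to red (higher) and an asterisk where the adjusted p is under 0.05. The 5 asterisks stand in the comparisons of the GOF lines with EZH2 H689A/F667I, at ATF4, ASNS and MTHFD2, with values between -0.13 and -0.11.

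Genes around the members in the pathway were counted, against EZH2 WT, by lists chosen with earlier results of these data known. Of 9 eIF2 kinases, eIF2 and eIF2B subunits and phosphatase subunits, 1 was lower in EZH2 Y641F (PPP1R15B, which guides the phosphatase to eIF2, -0.13, edgeR quasi-likelihood adjusted p = 0.0300), and 0 passed in EZH2 A677G or EZH2 H689A/F667I. That was 11.1% of the list in EZH2 Y641F, where 7.68% of all genes were called. PPP1R15B passed in 3 of 6 fits that left out a library. Of 20 cytosolic aminoacyl-tRNA synthetases, which charge tRNAs and are common ATF4 targets, 1 was lower in EZH2 A677G (AARS, for alanine, -0.12, edgeR adjusted p = 0.0431) and 0 passed in the other mutant lines. That was 5.0% of the list in EZH2 A677G, where 8.55% of all genes were called. AARS passed in 0 of 6 fits that left out a library. In 19 other enzymes of serine, glycine and folate metabolism, in 18 genes of the IRE1 and ATF6 branches and in 9 of the mitochondrial stress relay, 0 passed against EZH2 WT in any line. Against EZH2 H689A/F667I, the eIF2 kinase EIF2AK3 was higher and OMA1, of the mitochondrial relay, lower in both GOF lines. XBP1 was lower in EZH2 A677G. No other gene of these lists was called there, where 8.92% and 10.3% of all genes were. The lists below also held calls there, not given here.

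Of 12 bZIP factors that pair with or resemble ATF4, 1 rose and 1 fell in EZH2 Y641F, 2 fell in EZH2 A677G and 0 passed in EZH2 H689A/F667I. That was 16.7% of the list in each GOF line, where 7.68% and 8.55% of all genes were called. CEBPD, a C/EBP partner, measured 5.28, 4.92 and 5.43 CPM in EZH2 WT and 3.25, 2.60 and 3.70 in EZH2 A677G, and its log2 fold change of -0.71 ± 0.154 (SE; edgeR quasi-likelihood, adjusted p = 0.00162) passed in all 18 alternatives. BATF3 was lower in the GOF lines, by -0.46 with Y641F (edgeR adjusted p = 0.0353) and by -0.48 with A677G (adjusted p = 0.0263). JUN rose by 0.27 in EZH2 Y641F (edgeR adjusted p = 0.0190), but by 0.055 without replicate 1 of that line (adjusted p = 0.501), the library that was high in DDIT4. Of 20 other ATF4 targets, 1 rose and 1 fell in EZH2 A677G, and 0 passed in the other lines. The share in EZH2 A677G was 10.0%, where that of all genes was 8.55%. The called targets were SESN2, another inhibitor of mTORC1 signalling (0.19, edgeR adjusted p = 0.0274), and NDRG1, a stress-responsive gene (-0.19, adjusted p = 0.0104).

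Amino acid transporters bring in the building blocks that the response restores. Of 14 of them, 1 was lower in EZH2 Y641F, 1 was higher and 3 were lower in EZH2 A677G, and 1 was higher in EZH2 H689A/F667I. In EZH2 A677G that was 28.6% of the list, where 8.55% of all genes were called. With EZH2 Y641F it was 7.14%, against 7.68%, and in EZH2 H689A/F667I 7.14%, against 0.301%. The last share rests on leaving out the genes at 0. With them kept, 169 of 14438 genes were called in EZH2 H689A/F667I, in place of 43 of 14263. In EZH2 A677G it was 1394, in place of 1219. SLC7A11, the cystine carrier that feeds glutathione synthesis, measured 49.7, 51.1 and 54.8 CPM in EZH2 WT, 58.6, 55.7 and 55.7 with EZH2 Y641F, 59.1, 56.9 and 57.1 with EZH2 A677G and 64.1, 66.1 and 63.9 with EZH2 H689A/F667I. Every mutant library was above EZH2 WT, and the LOF libraries were the highest. Its log2 fold change was 0.32 ± 0.0477 (SE) in EZH2 H689A/F667I (edgeR quasi-likelihood, adjusted p = 5.5e-04), 0.15 in EZH2 A677G (adjusted p = 0.0337) and 0.13 in EZH2 Y641F (adjusted p = 0.0982). SLC7A5, the carrier of large neutral amino acids, measured 254, 250 and 243 CPM in EZH2 WT, 202, 233 and 221 with EZH2 Y641F, 229, 225 and 230 with EZH2 A677G and 230, 234 and 235 with EZH2 H689A/F667I. Here every mutant library was below EZH2 WT, and for neither carrier was the share of all genes with such a pattern counted. Its log2 fold change was -0.19 ± 0.0398 (SE) in EZH2 Y641F (edgeR quasi-likelihood, adjusted p = 0.00156), -0.13 in EZH2 A677G (adjusted p = 0.0351) and -0.097 in EZH2 H689A/F667I (adjusted p = 0.464). SLC7A3, for cationic amino acids (-0.56, edgeR adjusted p = 0.0101), and SLC38A1, for glutamine (-0.13, adjusted p = 0.0246), were the others that fell in EZH2 A677G. Of the 18 calls against EZH2 WT in the lists of pathway and stress genes, 3 passed in every alternative: CEBPD in EZH2 A677G, SLC7A11 in EZH2 H689A/F667I and SLC7A5 in EZH2 Y641F.

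Lists of other stress programs were read beside the members. Of 11 hypoxia-responsive genes, 1 was lower in EZH2 Y641F (EGLN3, -0.28, edgeR quasi-likelihood adjusted p = 0.0305) and 2 in EZH2 A677G (EGLN3, -0.31, adjusted p = 0.0136, and ENO2, -0.55, adjusted p = 0.0142), and 0 passed in EZH2 H689A/F667I. Those were 9.09% of the list in EZH2 Y641F, where 7.68% of all genes were called, and 18.2% in EZH2 A677G, against 8.55%. Of 9 immediate early genes, MYC alone passed, in EZH2 A677G (-0.19, edgeR adjusted p = 0.00691). That was 11.1% of the list, against 8.55% of all genes.

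**Figure D4:**
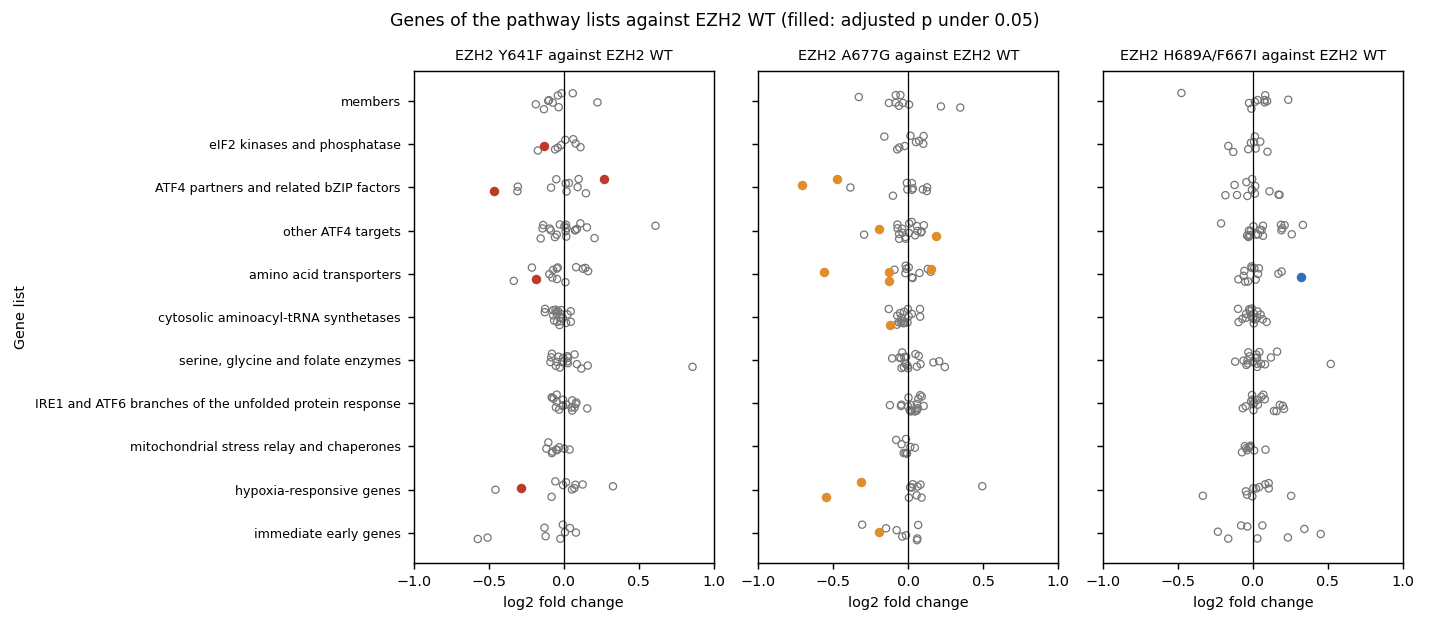
Log2 fold change against EZH2 WT (x axis) of every tested gene in the members and in 10 lists of related genes (rows), in a panel for each mutant line, with filled points where the adjusted p is under 0.05 (1 point per gene). The row of members holds no filled point in any panel, and the EZH2 H689A/F667I panel holds 1 filled point, SLC7A11.

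Over the 12 libraries, the members were also compared by pattern, as the root mean square difference between log2 CPM scaled to mean 0 and SD 1 for each gene. The closest pair was ASNS and PSAT1, at 0.523 SD. PHGDH was nearest to ATF4 (0.760), as were MTHFD2 (0.767) and TRIB3 (0.855). DDIT4 and CHAC1 were nearest to each other, at 1.02, and DDIT3 was nearest to PHGDH at 1.27, farther from any member than the other 9 were from theirs. Among 14253 genes outside the set, those most like ATF4 were ECEL1 (0.326), C15orf40 (0.341) and SHISA8 (0.348). For ASNS they were CLU (0.379), DGKA (0.385) and JDP2 (0.387), and for PHGDH TMEM37 (0.429), MRPL45P2 (0.446) and KIAA0513 (0.448). The 12 libraries share lines and depth, and the values describe these libraries only.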

How the data were processed

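RNA-Seq was done on 12 HEK293T libraries (TruSeq Stranded mRNA). According to the study's methods and the submitters' processing notes, reads were trimmed with Trim Galore 0.6.5, aligned to GRCh38 with STAR 2.7.9a and quantified with Salmon 1.2.0. Whole-number read counts per gene symbol, not normalized, are what the authors deposited. The step from Salmon to counts and the filter that left 14438 genes are not given in the sources used here.

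The analysis used edgeR 4.0.16 under R 4.3.3. Genes at 0 in all EZH2 A677G or all EZH2 H689A/F667I libraries (175) were left out, and 14263 were tested, all of which passed filterByExpr. TMM normalization and the quasi-likelihood test were used on all libraries with 1 coefficient per line, in place of the study's exact test. P-values were adjusted for all tested genes (Benjamini-Hochberg, threshold 0.05). The biological coefficient of variation was 0.0471. Intervals for single genes are at 95% and not adjusted. Log2 CPM used a prior count of 2.

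Alternatives were the exact test, DESeq2 1.42.0, upper-quartile factors, library totals, zeros kept, at least 10 counts per library, no filterByExpr, only the compared lines, a replicate block, voom with quality weights in limma 3.58.1, removal of GC trends with and without the block, and each library left out in turn. Of the symbols, 13272 matched a GENCODE name, 812 an older symbol and 354 neither. Members and lists were chosen with earlier results of these data known. All members are named, as are genes of other lists that passed against EZH2 WT, up to 4 per list by size, and the 3 genes nearest in pattern to ATF4, ASNS and PHGDH. EIF2AK3, OMA1 and XBP1 were named for their calls against EZH2 H689A/F667I. The procedure was tested on simulated counts with the same spread for every gene and planted changes larger than those of the called members. It therefore does not tell how well changes of their size are found.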

Additional observations from a re-analysis of the deposited data

Results flagged for a closer look

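The following were picked out because the effects of 2 mutant lines against EZH2 WT differed when the difference itself was tested (edgeR quasi-likelihood, Benjamini-Hochberg adjusted p under 0.05). The effect in EZH2 Y641F minus that in EZH2 H689A/F667I was -0.11 on the log2 scale for ATF4, -0.13 for ASNS and -0.12 for MTHFD2. The effect in EZH2 A677G minus that in EZH2 H689A/F667I was -0.13 for ATF4 and -0.12 for MTHFD2. In none of these 3 genes did either line alone pass against EZH2 WT. These are the same tests as those of the GOF lines against the LOF line given above, not further results. Each of these calls was lost in some alternative.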

How the results depend on the processing

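No call of a member reversed in any alternative. Of the values of single members under the alternatives, 1033 stayed on their side of the threshold, 18 passed where the reported value had not and 29 no longer passed. Against EZH2 WT, the count of members called in EZH2 Y641F was 0 and became 1 (DDIT4) with the GC trend removed and a replicate block, and ranged from 0 to 1 when a library was left out (DDIT4 without replicate 2 or 3 of that line, PHGDH without replicate 1). In EZH2 A677G it was 0 and became 1 (DDIT4) with only the compared lines, with voom weights, or with the GC trend removed and a replicate block, and ranged from 0 to 1 when a library was left out. For EZH2 Y641F against EZH2 H689A/F667I it was 3, became 0 with library totals alone and 0 with only the compared lines, and ranged from 0 to 3. For EZH2 A677G against EZH2 H689A/F667I it was 2, became 4 (ASNS, ATF4, DDIT4 and MTHFD2) with only the compared lines, and ranged from 0 to 2. For EZH2 H689A/F667I against EZH2 WT and for the GOF lines against each other it was 0 in every alternative. The strict motif TGATGCAA was in 1 member promoter in place of 3. The causes were not tested. The fits that leave a library out also hold fewer libraries, and the part of that was not tested either.

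Replicate numbers were shared by the lines, but deviations of same-numbered libraries correlated between -0.0557 and 0.0501 over 18 pairs. Differently numbered libraries of different lines reached -0.0661 and 0.0725. No pairing by number was thus seen over all genes. Whether libraries were handled together is not given in the sources used here, and a shared effect on few genes would not show in this measure. With the replicate block alone the counts of members called were 0, 0 and 0 against EZH2 WT, 0 between the GOF lines, and 3 and 2 against EZH2 H689A/F667I, as without it. Depth limits CHAC1 and DDIT3 most, where counting alone gives a coefficient of variation of up to 11.5% and 9.45% in a line.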
